A study of Mus musculus with 9 samples.

Results

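The genes described here are those that carry out necroptosis and pyroptosis, forms of lytic cell death, together with the caspases and the inhibitor that stand between them and apoptosis. Members were chosen by name (Mlkl, Ripk1, Ripk3, Zbp1, Gsdmd, Casp1, Casp8, Fadd and Xiap), and all probe sets of an Affymetrix mouse expression array that the platform annotation gave to a single one of these genes were taken. Of the 9 genes, 8 had such a probe set, giving 16 of the 45037 probe sets of the array, and 14 of the 16 were detected, meaning that 1 or more arrays reached a log2 signal of 5. No probe set was paired with Ripk1 alone in the annotation used, so Ripk1 was not analysed here.

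RNA came from whole testes of mice at 24 weeks of age, 5 Tmem203 null samples and 4 WT samples. There was 1 array per sample, and no treatment is described. The line was made from C57BL/6 embryonic stem cells placed in C57BL/6J blastocysts. It was then crossed with Flpe deleter mice, whose strain is not stated. Tmem203 encodes a membrane protein of the endoplasmic reticulum linked to calcium signalling, and the null allele lost the start codon in every cell of the animal, so an effect within the testis cannot be told apart from one that began elsewhere. Testes of an animal were harvested separately, and the labels do not say that each array is a different mouse, so the p-values below measure the spread between these samples. Tmem203 itself, read by probe set 1426277_at, averaged 9.11 ± 0.03 in null and 9.81 ± 0.13 in WT testes (log2 signal, SD, n = 5 and 4), a change of -0.70 (SE 0.06, limma adjusted p = 2.87e-04), with no overlap between the groups. Array medians lay between 6.96 and 7.05, and arrays correlated with each other at 0.993 to 0.998 over all probe sets. The 3′ minus 5′ signal of the Gapdh control probe sets, a sign of RNA quality, was 0.81 to 0.90 in the 5 null and 0.92 to 0.95 in the 4 WT arrays (0.85 ± 0.04 in null and 0.93 ± 0.01 in WT, SD), with no overlap. It thus moved with the groups in every comparison below, and its part in the results was not tested. The WT replicate 3 array stood farthest from the others, and leaving it out ended none of the member calls given below (6 member probe sets then passed, against 5 with it).

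In necroptosis, the kinase RIPK3 is engaged by RIPK1 below death receptors or by ZBP1, a sensor of Z-form nucleic acids, and phosphorylates MLKL, which then breaches the plasma membrane. In pyroptosis, inflammasomes activate caspase-1, which cleaves gasdermin D so that its N-terminal part forms membrane pores. Caspase-8, recruited by the adaptor FADD, starts apoptosis and cleaves RIPK1 and RIPK3, and XIAP is a ubiquitin ligase that inhibits caspases. In mouse testis, RIPK3 and MLKL are known for a proposed part in ageing of the male reproductive organs. Sertoli cells, which engulf dying germ cells, and testicular macrophages are the phagocytes of the tissue.

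Promoter windows from 250 bases before to 50 after the start were matched in RefSeq (build GRCm38.p6) for 7 of the 9 members, with 10 starts in all. The windows printed are those of the genes between which the results turn, 2 that were lower in null testes (Mlkl and Casp1), 2 that were higher (Casp8 and Xiap) and Ripk3, the kinase upstream of MLKL, for contrast. Capitals mark a match to the core of the interferon response element (GAAANNGAA, both strands). They lie at chr8:111338156-111338455 on the minus strand for Mlkl, chr9:5298267-5298566 on the plus strand for Casp1, chr1:58802252-58802551 on the plus strand for Casp8, chrX:42068148-42068447 on the plus strand for the first of 3 Xiap starts, and chr14:55788808-55789107 on the minus strand for Ripk3.
Mlkl: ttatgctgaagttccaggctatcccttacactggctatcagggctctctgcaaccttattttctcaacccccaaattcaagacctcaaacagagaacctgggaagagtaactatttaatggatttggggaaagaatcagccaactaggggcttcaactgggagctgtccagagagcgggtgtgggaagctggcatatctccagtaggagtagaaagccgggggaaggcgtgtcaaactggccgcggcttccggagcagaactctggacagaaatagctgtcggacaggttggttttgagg
Casp1: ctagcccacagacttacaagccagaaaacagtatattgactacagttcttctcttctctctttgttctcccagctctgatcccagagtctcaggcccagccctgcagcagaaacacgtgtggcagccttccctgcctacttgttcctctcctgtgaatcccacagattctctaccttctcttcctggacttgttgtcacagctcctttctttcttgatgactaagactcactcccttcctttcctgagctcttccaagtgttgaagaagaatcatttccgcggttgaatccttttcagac
Casp8: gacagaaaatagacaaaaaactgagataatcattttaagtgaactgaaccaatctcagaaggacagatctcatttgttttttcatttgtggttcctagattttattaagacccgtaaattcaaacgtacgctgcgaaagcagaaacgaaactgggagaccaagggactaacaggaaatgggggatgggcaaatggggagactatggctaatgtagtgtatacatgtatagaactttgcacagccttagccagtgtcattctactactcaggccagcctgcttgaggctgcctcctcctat
Xiap: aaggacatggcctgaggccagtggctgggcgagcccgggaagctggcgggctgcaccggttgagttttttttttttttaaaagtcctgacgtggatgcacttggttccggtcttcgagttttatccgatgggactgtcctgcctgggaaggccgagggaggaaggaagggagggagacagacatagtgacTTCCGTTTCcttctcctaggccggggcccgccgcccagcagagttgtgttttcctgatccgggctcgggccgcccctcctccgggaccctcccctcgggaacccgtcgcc
Ripk3: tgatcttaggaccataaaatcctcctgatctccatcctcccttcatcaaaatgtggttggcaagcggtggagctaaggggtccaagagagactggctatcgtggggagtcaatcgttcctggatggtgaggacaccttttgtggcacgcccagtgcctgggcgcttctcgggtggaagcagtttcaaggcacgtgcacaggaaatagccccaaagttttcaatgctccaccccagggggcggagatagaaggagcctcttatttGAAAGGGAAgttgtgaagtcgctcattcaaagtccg

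The Ripk3 window held 1 match on its own strand, 14 bases after the start, and this Xiap window held 1 on the opposite strand, 60 bases before the start. The Mlkl, Casp1, Casp8 and Fadd windows held none. Among all 32851 windows of this length, 8.56% held at least 1 such match. A second motif, the gamma-activated site TTCNNNGAA, had a match in none of these windows and in 8.3% of all windows. The windows also differed in CpG dinucleotides, with 7 in Mlkl, 3 in Casp1, 5 in Casp8, 20 in this Xiap window, 22 in Fadd and 10 in Ripk3, beside a median of 7 over all windows. Of the Ripk1 starts, 1 held matches to both motifs, and the other Xiap starts held none. Gsdmd and Zbp1 had no matched window. Mlkl and Casp1, lower in null testes, thus had no match to either motif in these windows, and neither did Casp8, which was higher. The windows of Mlkl, Casp8 and Xiap lie at starts inside the annotated genes. The outer 5′ ends of these genes (111338479 for Mlkl, 58795233 for Casp8 and 42059613 for Xiap) fall outside the windows. The motif matches and CpG counts therefore hold for these windows alone, and the sequence around those outer ends of Casp8 and Xiap was not scanned.

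Of the 16 member probe sets, 5 passed a Benjamini-Hochberg adjusted p of 0.05 over all probe sets (limma), 2 higher in null testes and 3 lower. Among all probe sets on the array, 4.12% were higher and 3.36% lower at that threshold. With the further thresholds of the methods, a change of at least 1.5-fold and detection, 3 members were called, Casp8 higher and Mlkl and Gsdmd lower, where 0.635% of all probe sets were called higher and 0.469% lower. The members were chosen with earlier results of these data known, so these counts beside the shares are no test of enrichment. All null arrays lay above all WT arrays in 2 member probe sets and below them in 2, beside 5.68% and 6.07% of all probe sets, and the groups overlapped in the other 12. The median change of the 16 member probe sets was 0.02 on the log2 scale, against -0.01 over all probe sets, and the members that passed moved in both directions. Signals are compared between groups for 1 probe set at a time, since probe sets differ in how brightly they bind. In whole testis, fewer cells of a type and less RNA per cell cannot be told apart.

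**Figure D1:**
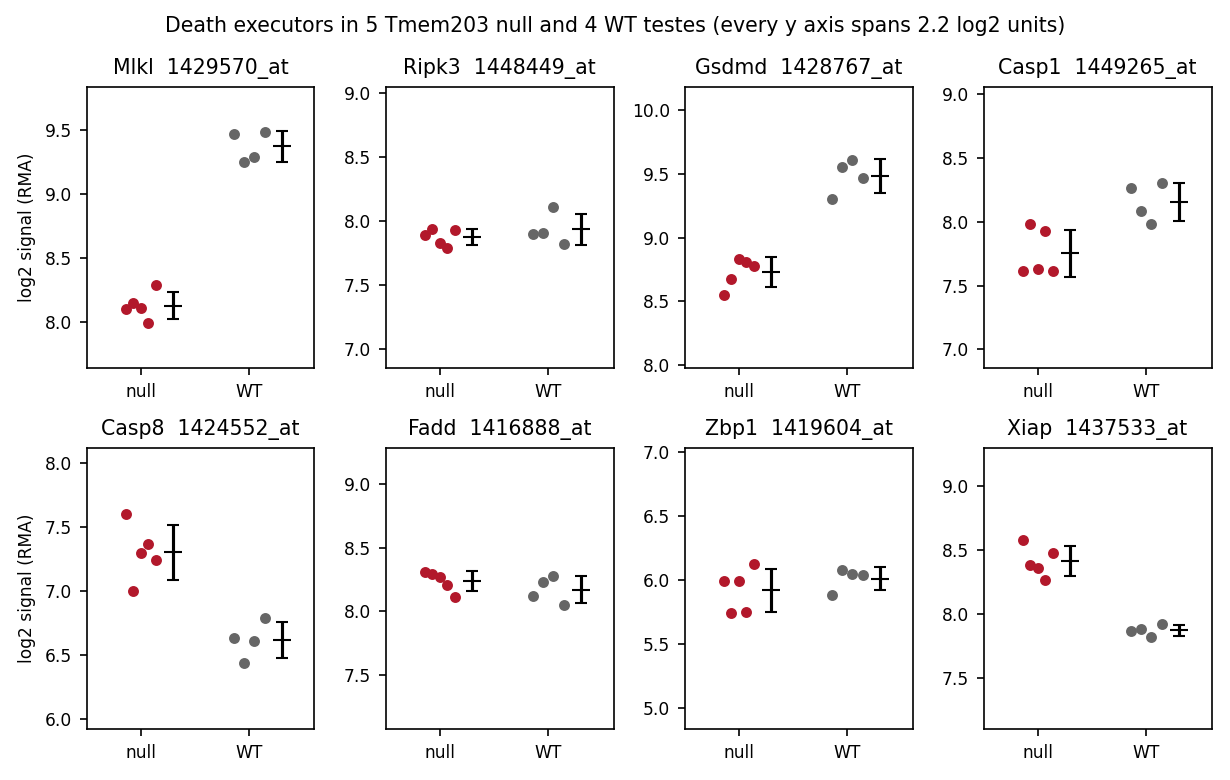
Log2 signal (y axis) of 1 probe set for each of 8 executor genes in Tmem203 null (left) and WT testes (right), with 1 point per array and bars for the mean and SD. The null points of Mlkl and Gsdmd lie below all WT points, those of Casp8 and Xiap lie above them, and those of Ripk3, Fadd and Zbp1 overlap with WT. Casp1 null and WT points meet at 7.98. The Xiap probe set shown is the brightest of 7 and the only 1 that separates the groups.

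Mlkl, the membrane-breaching pseudokinase at the end of necroptosis, had the largest change among the members and ranked 7 by p among all probe sets. Its signal (1429570_at) was 8.10, 8.15, 8.11, 7.99 and 8.29 in the null testes, against 9.47, 9.25, 9.29 and 9.49 in the WT testes. Every null array lay below every WT array, and the gap between the highest null and the lowest WT array was 0.96, several times the SD within either group (0.11 in null and 0.12 in WT testes). The change was -1.25 (95% confidence interval -1.42 to -1.08, SE 0.08, limma adjusted p = 4.8e-05), and the signal was 2.37-fold lower in null testes. Without WT replicate 3 and under the other 15 alternatives tried, the change stayed between -1.29 and -1.21 and the adjusted p at or below 0.00524. No other member changed by as much as 2-fold.

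Ripk3, the kinase that phosphorylates MLKL, had 7.89, 7.94, 7.83, 7.79 and 7.93 in the null testes, against 7.90, 7.91, 8.11 and 7.82 in the WT testes (1448449_at). All null arrays apart from replicate 4 lay within the WT range, so the groups overlapped. The change was -0.06 with a 95% interval of -0.20 to 0.09 (adjusted p = 0.663), which leaves room for a small change in either direction and none as large as that of Mlkl. Zbp1, the nucleic acid sensor that can engage RIPK3 without RIPK1, was near the detection threshold. Its first probe set (1419604_at) had 5.99, 5.74, 5.99, 5.75 and 6.13 in the null testes and 5.88, 6.08, 6.05 and 6.04 in the WT testes, with a change of -0.10 (interval -0.29 to 0.10, adjusted p = 0.557). The second (1429947_a_at) ranged from 5.59 to 6.24 in null and from 5.65 to 6.06 in WT testes, with a change of -0.09 (adjusted p = 0.748). Neither Zbp1 probe set separated the groups.

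To set the kinase and its substrate side by side, the Ripk3 signal was taken from the Mlkl signal within each array. The size of that difference depends on how each probe set binds and only its change between groups is read. It was 0.21, 0.21, 0.27, 0.20 and 0.36 in the null testes, against 1.57, 1.34, 1.18 and 1.67 in the WT testes. The groups did not overlap, and the means of 0.25 ± 0.07 in null and 1.44 ± 0.22 in WT testes differed by -1.19 (SD, n = 5 and 4, two-sided exact permutation test, p = 0.0159, adjusted p = 0.0476 over 3 such differences). That p of 0.0159 is the smallest that 5 arrays against 4 can give. With 1 array fewer the groups still did not overlap, and the difference stayed between -1.28 and -1.11. The same test then passed only without null replicate 2 (adjusted p up to 0.107 without the others). Fewer arrays raise the smallest p, and the 3 differences are adjusted together, so these failures do not show that the result rests on 1 array. Mlkl was thus lower relative to Ripk3 in each null testis than in any WT testis.

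**Figure D2:**
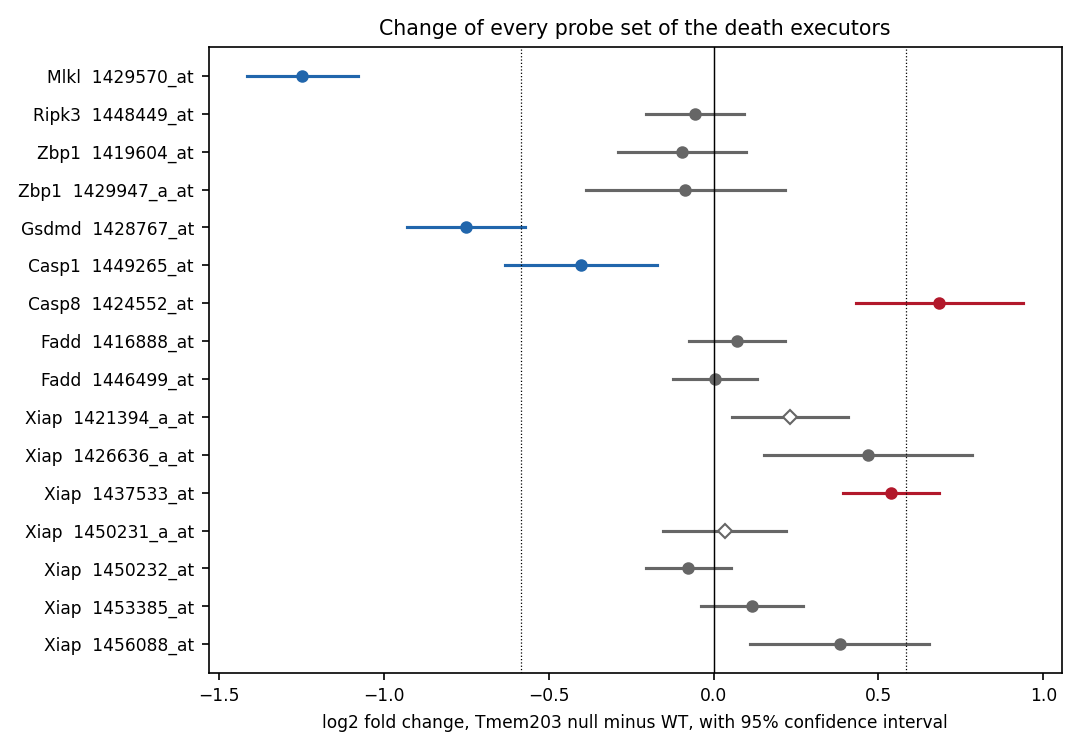
Change of each of the 16 member probe sets (rows) in Tmem203 null testes relative to WT, in log2 units on the x axis, with the 95% confidence interval. Blue is lower and red higher in null at an adjusted p under 0.05, grey did not pass, open diamonds were not detected, and dotted lines mark a change of 1.5-fold; Mlkl at -1.25 stands farthest from 0.

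Gsdmd, the pore-forming protein of pyroptosis, was also lower in null testes. Its signal (1428767_at) was 8.55, 8.68, 8.83, 8.81 and 8.78 in the null testes, against 9.30, 9.55, 9.61 and 9.47 in the WT testes. No null array reached the lowest WT array, which lay 0.46 above the highest null array. The change was -0.75 (95% interval -0.93 to -0.57, SE 0.08, limma adjusted p = 0.000689), and the signal was 1.68-fold lower in null testes. It passed the test under each of the 16 alternatives, with changes between -0.81 and -0.68.

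Casp1, the inflammasome protease that cleaves gasdermin D, was lower by a smaller amount. It had 7.61, 7.98, 7.63, 7.93 and 7.61 in the null testes, against 8.26, 8.08, 7.98 and 8.30 in the WT testes (1449265_at). Null replicate 2 and WT replicate 3 met at 7.98, and null replicate 4 lay close below, so the groups touched. The change was -0.40 (95% interval -0.63 to -0.17, SE 0.10, limma adjusted p = 0.0418), which is 1.32-fold lower in null testes and under the 1.5-fold threshold. The call was lost, with an adjusted p of up to 0.0993, when null replicate 1, 3 or 5 or WT replicate 1, 2 or 4 was left out. Gsdmd minus Casp1 within each array averaged 0.98 ± 0.21 in null and 1.33 ± 0.27 in WT testes, a difference of -0.35 with overlapping groups that did not pass (two-sided exact permutation test, p = 0.0794, adjusted p = 0.0794). So a larger change of Gsdmd than of Casp1 was not shown.

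Casp8, the initiator caspase that both starts apoptosis and cleaves RIPK1 and RIPK3, moved the other way. Its signal (1424552_at) was 7.60, 7.00, 7.30, 7.37 and 7.24 in the null testes, against 6.63, 6.44, 6.61 and 6.79 in the WT testes. All null arrays lay above all WT arrays, with null replicate 2 the nearest to WT, 0.20 above WT replicate 4. The change was 0.68 (95% interval 0.43 to 0.94, SE 0.11, limma adjusted p = 0.00629), and the signal was 1.61-fold higher in null testes. The call held under the 16 alternatives, at 0.61 to 0.76, with an adjusted p of at most 0.0242.

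Fadd, the adaptor that joins caspase-8 to death receptors, had 2 probe sets and neither passed. The first (1416888_at) had 8.31, 8.29, 8.27, 8.21 and 8.11 in the null testes, against 8.12, 8.23, 8.28 and 8.05 in the WT testes, a change of 0.07 (interval -0.08 to 0.22, adjusted p = 0.565). The second (1446499_at) ranged from 7.81 to 8.04 in null and from 7.88 to 8.01 in WT testes, a change of 0.00 (interval -0.12 to 0.13, adjusted p = 0.977). Both intervals end well below the change of Casp8. Casp8 minus Fadd (1416888_at) within each array was -0.71, -1.30, -0.98, -0.84 and -0.87 in the null testes, against -1.50, -1.80, -1.67 and -1.25 in the WT testes. Null replicate 2 fell below the highest WT array, and the means of -0.94 ± 0.22 in null and -1.55 ± 0.24 in WT testes differed by 0.61 (two-sided exact permutation test, p = 0.0317, adjusted p = 0.0476). This too passed with 1 array fewer only without null replicate 2, where the difference was 0.70.

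**Figure D3:**
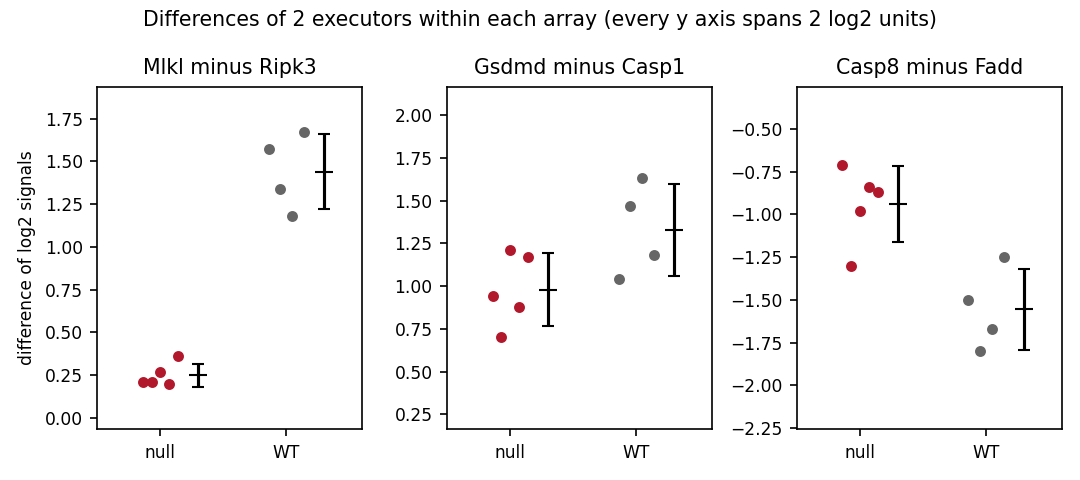
Difference of the log2 signals of 2 executors within each array (y axis, log2 units) in Tmem203 null (left) and WT testes (right), with 1 point per array and bars for the mean and SD. The groups are apart for Mlkl minus Ripk3 (0.25 in null and 1.44 in WT on average) and overlap for Gsdmd minus Casp1 and for Casp8 minus Fadd.

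Xiap, the caspase inhibitor, was read by 7 probe sets, of which 5 were detected on every array and 6 had a higher mean in null testes. The brightest (1437533_at) had 8.58, 8.38, 8.36, 8.27 and 8.48 in the null testes, against 7.87, 7.88, 7.82 and 7.92 in the WT testes. All null arrays lay above all WT arrays, by at least 0.35, and the change was 0.54 (95% interval 0.39 to 0.68, SE 0.07, limma adjusted p = 0.00138). At 1.45-fold higher in null testes it was just under the 1.5-fold threshold.

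The other Xiap probe sets did not pass. In 1426636_a_at, the null testes had 6.70, 6.14, 6.67, 6.66 and 6.58, against 6.33, 6.21, 6.05 and 5.73 in the WT testes, a change of 0.47 (SE 0.14, adjusted p = 0.0764). Null replicate 2 alone lay within the WT range, and without it the change was 0.57 (adjusted p = 0.0232). It did not pass when any other array was left out (limma adjusted p up to 0.161). In 1456088_at, the null testes had 6.88, 6.41, 6.89, 6.43 and 6.91, against 6.46, 6.26, 6.34 and 6.23 in the WT testes, a change of 0.38 (SE 0.12, adjusted p = 0.0894). Null replicates 2 and 4 lay at the upper end of the WT range, and without replicate 2 the change was 0.46 (adjusted p = 0.0435). This probe set too failed when any other array was left out (limma adjusted p up to 0.200). The dimmer probe sets 1453385_at and 1450232_at changed by 0.12 (adjusted p = 0.358) and -0.08 (adjusted p = 0.467), with overlapping groups. The remaining 2 (1421394_a_at at 0.23, adjusted p = 0.110, and 1450231_a_at at 0.03, adjusted p = 0.847) were not detected on any array. Of the 7 Xiap probe sets, 1 thus passed the test and 0 met the fold threshold as well. Probe sets of a gene can read different transcript ends, and which transcripts these read was not tested.

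**Figure D4:**
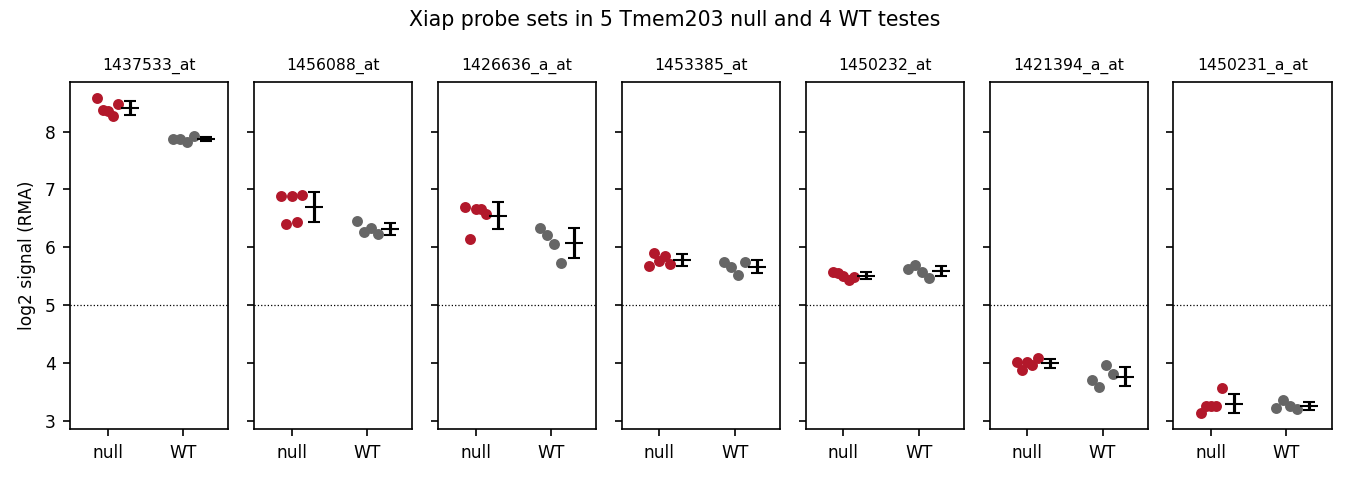
Log2 signal (y axis) of the 7 Xiap probe sets in Tmem203 null (left in each panel) and WT testes (right), with 1 point per array, bars for the mean and SD, and a dotted line at the detection threshold of 5. Null arrays lie above WT arrays throughout in 1437533_at (8.41 in null and 7.88 in WT on average) and overlap with them in the other 6.

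The probe sets whose pattern over the 9 arrays was most like each called member were found by Pearson correlation, given as a description, since a shared difference between the groups alone produces high values. For Mlkl these were probe sets of Atp2b2, a plasma membrane calcium pump (r = 0.991), Zim2 (r = 0.988) and Ntsr2, a neurotensin receptor (r = 0.988). For Gsdmd they were Gm8350 (r = 0.998), Gskip (r = 0.996) and Gm36617 (r = 0.993). For Casp8 they were Enc1 (r = 0.992), Pdp2, a phosphatase subunit of the pyruvate dehydrogenase complex (r = 0.992), and Fzd7, a Wnt receptor (r = 0.989). No other death executor was among these 9.

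Other genes of the death pathways were taken as 6 lists of 146 genes in all, of which 121 had a detected probe set, and the detected probe set with the lowest p stood for each gene. Of the 121 genes, 15 were higher in null testes, 7 were lower and 99 did not pass, beside 8.03% higher and 6.82% lower among all 16180 detected genes counted the same way. Their median change was 0.05, against -0.03 over all detected genes. The count that passed, 22, was 12, 14, 10 and 14 without null replicate 1, null replicate 4, null replicate 5 and WT replicate 2. As measured, 4 met the thresholds of the methods, Casp4 (not detected on any WT array) higher and Tnfrsf10b, Gsdmc2 and Nlrc5 lower. At those thresholds 0.635% of all probe sets were called higher and 0.469% lower. That share was not counted by gene, so whether 4 is many or few was not tested.

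**Figure D5:**
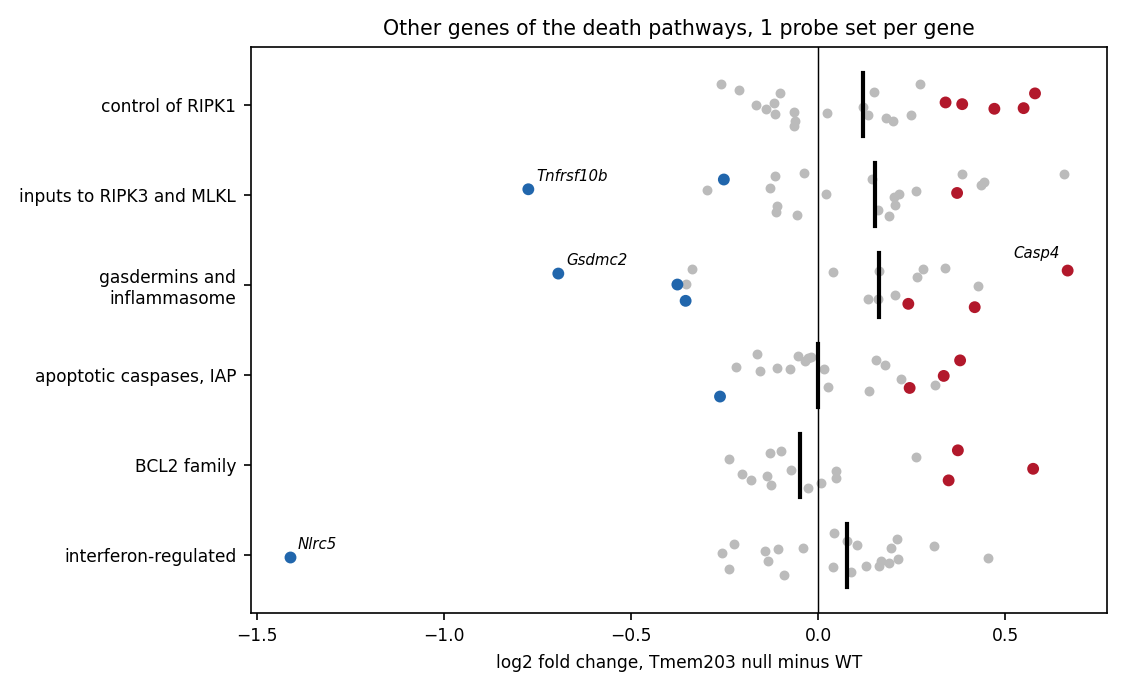
Change of the detected genes of 6 death pathway lists (rows) in Tmem203 null testes relative to WT, in log2 units on the x axis, with 1 point per gene and a black bar at the list's median. Red genes were higher and blue genes lower in null at an adjusted p under 0.05, grey genes did not pass, and names mark the 4 genes that as measured also met the fold and detection thresholds. Nlrc5 stands lowest, at -1.41, and Casp4, whose WT arrays were all under the detection threshold, has a bound of at least 0.32 in place of its plotted value.

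Genes that control RIPK1 and caspase-8 below the TNF receptor were higher where they passed, 5 of 23 higher and 0 lower, with 18 that did not pass and a median of 0.12. Of these 5 genes, 3 still passed when null replicate 1, 2, 3 or 5 or WT replicate 2 or 4 was left out. Cflar, which encodes c-FLIP, the partner that restrains caspase-8, had 9.94, 9.62, 9.74, 9.61 and 9.78 in the null testes, against 9.33, 8.85, 9.03 and 9.44 in the WT testes (change 0.58, SE 0.12, limma adjusted p = 0.0176). All null arrays lay above all WT arrays, and 3 of its other 4 probe sets also passed, at 0.33, 0.25 and 0.62, while the last was at -0.07. Cflar and Casp8 are neighbours on chromosome 1, with 0 protein-coding genes between them. Birc3, a ubiquitin ligase of RIPK1, had 8.74, 8.23, 8.48, 8.21 and 8.40 in the null testes, against 7.86, 7.91, 7.87 and 7.81 in the WT testes (change 0.55, adjusted p = 0.00990). Tnfaip3, the ubiquitin editor A20, had 6.81, 6.58, 6.74, 6.77 and 6.81 in the null testes, against 6.25, 6.30, 6.16 and 6.37 in the WT testes (change 0.47, adjusted p = 0.00286). In both genes the groups did not overlap, and neither change reached 1.5-fold.

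Among 22 receptors, adaptors and regulators that feed into RIPK3 and MLKL, 1 was higher, 2 were lower and 19 did not pass, with a median of 0.15. Tnfrsf10b, the mouse TRAIL receptor that triggers death, had 8.52, 8.63, 8.61, 8.47 and 8.47 in the null testes, against 9.33, 9.29, 9.23 and 9.41 in the WT testes (1422344_s_at, 1.71-fold lower in null). A further probe set of Tnfrsf10b was at -0.10 (adjusted p = 0.575). Ticam1, the adaptor TRIF that binds RIPK1 and RIPK3 below Toll-like receptors, was higher by 0.37 (adjusted p = 0.0219), and Flot2, a membrane scaffold protein, was lower by a small amount, -0.25 (adjusted p = 0.0166). Ticam1 did not pass without null replicate 5 (adjusted p = 0.0577).

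Of 32 gasdermin and inflammasome genes, 22 had a probe set and 17 a detected one, and among these 3 were higher, 3 lower and 11 did not pass, with a median of 0.16. Gsdmc2, another gasdermin, had 7.44, 7.42, 7.27, 7.29 and 7.53 in the null testes, against 8.00, 8.03, 8.23 and 8.09 in the WT testes, with no overlap (change -0.70, 1.62-fold lower in null, limma adjusted p = 0.000511). The other 2 that fell were gasdermins too, Gsdme at -0.35 (adjusted p = 0.0381) and Gsdma at -0.38 (adjusted p = 0.0465), both named after their values were seen and both with overlapping groups. A further detected Gsdme probe set was at -0.00 (adjusted p = 0.993). Casp4, the mouse caspase-11 that senses bacterial lipopolysaccharide and cleaves gasdermin D, had 5.44, 5.52, 5.15, 5.18 and 5.32 in the null testes, against 4.73, 4.82, 4.96 and 4.10 in the WT testes. No WT array reached the detection threshold, so its signal was at least 1.25-fold higher in null testes against that threshold. This bound does not reach 1.5-fold and was not tested. The limma adjusted p of 0.0311 belongs to the change as measured, 0.67. Casp4 lies next to Casp1 on chromosome 9, and the neighbours thus passed in opposite directions. Casp4 did not pass without any 1 of null replicates 1, 2, 4 and 5 or WT replicates 1 and 2 (adjusted p 0.0522 to 0.0757), and Gsdme and Gsdma each failed without 6 and 7 of the arrays (up to 0.113 and 0.122). Of the 6 genes that passed, 2 still did so when null replicate 4, null replicate 5, WT replicate 1 or WT replicate 2 was omitted, and 3 when null replicate 1, null replicate 2 or WT replicate 4 was. Ddx3x, an RNA helicase of the NLRP3 inflammasome, was higher by 0.42, with its other 2 probe sets at 0.44 and 0.45. Of the sensors, Nlrp3, Naip6, Aim2 and Mefv were not detected, nor was the cytokine Il1a.

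Of 20 apoptotic caspases, their inhibitors and cofactors, 3 were higher, 1 was lower and 16 did not pass, with a median of -0.00. Cycs, the somatic cytochrome c, was higher by 0.24 (adjusted p = 0.0198), with other probe sets at 0.14 and 0.12 that did not pass. Aifm1, a mitochondrial flavoprotein released in cell death, was higher by 0.38 (adjusted p = 0.0329). Dffa, the inhibitor of the caspase-activated DNase, was lower, at -0.26 (adjusted p = 0.0383). All 3 lost their calls when single arrays were left out, Cycs without null replicate 1, null replicate 5 or WT replicate 2 (adjusted p up to 0.0557), Aifm1 and Dffa without 6 arrays each (up to 0.0970 and 0.0938). Without null replicate 1 or 5, 0 of the 4 genes that passed still did so, against 1 without WT replicate 1, 2 or 4 and 2 without null replicate 3 or 4. Of 16 detected BCL2 family genes, 3 were higher and 0 lower, with 13 that did not pass and a median of -0.05. Bcl2l11, which encodes the killer BIM, was higher by 0.58 (adjusted p = 0.00370), and its other probe sets disagreed, with 1 that passed at 0.54 and 1 that passed at -0.23. Bcl2l2, the survival protein BCL-W that spermatogenesis needs in mice, was higher by 0.37 (adjusted p = 0.00937), while its other 3 probe sets, at -0.03, 0.14 and 0.06, did not pass. Bok, a pore-forming relative of BAX, was higher by 0.35 (adjusted p = 0.0411), a call that was lost without any 1 of 8 arrays (adjusted p up to 0.0974) and kept without WT replicate 3 alone.

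Of 23 interferon-regulated genes, the class to which Zbp1, Mlkl and Casp1 are often counted, 0 were higher, 1 was lower and 22 did not pass by limma, with a median of 0.08. The gene that passed, Nlrc5, the transactivator of MHC class I genes, had 7.57, 8.03, 8.13, 7.85 and 7.75 in the null testes, against 9.59, 9.24, 8.94 and 9.35 in the WT testes. The groups did not overlap, and the change of -1.41 (SE 0.14, limma adjusted p = 4.29e-04) was 2.66-fold lower in null.

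Markers of the cells that could contribute these transcripts were measured on the same arrays. Counts used the detected probe set with the lowest p of each gene, and mean signals used the brightest. Among all detected genes counted in this way, 8.03% were higher and 6.82% lower. The mean signal of 9 Sertoli cell markers was 10.11 to 10.28 in null and 9.88 to 10.02 in WT testes, and 5 of the 9 genes were higher. Of 10 macrophage markers, 3 were higher (Mrc1, Cd163 and Cx3cr1) and 0 lower, with a mean signal of 8.84 to 9.04 in null and 8.44 to 8.87 in WT testes. Cd163 passed with groups that met at 7.59. Cx3cr1 passed narrowly (limma adjusted p = 0.0452), and its other probe set, at 0.23, did not (adjusted p = 0.254). Of 4 Leydig cell markers 2 were higher (11.82 to 12.30 in null and 11.36 to 12.02 in WT testes), and of 7 lymphocyte markers 0 passed (6.00 to 6.32 in null and 5.96 to 6.55 in WT testes). The Leydig cell marker Cyp11a1 passed only through its dimmer probe set (change 0.50, limma adjusted p = 0.00468). Its brighter probe set was at 0.34 (adjusted p = 0.383). Of 8 spermatocyte markers 0 passed (12.28 to 12.30 in null and 12.18 to 12.41 in WT testes). The same held for 6 round spermatid markers (12.89 to 12.98 in null and 12.95 to 13.06 in WT testes). It held too for 6 elongating spermatid markers (14.33 to 14.38 in null and 14.34 to 14.37 in WT testes). These had the highest mean signal of the marker lists, and whether so bright a signal could show a fall was not tested. Of 7 spermatogonial markers 2 were higher. Of these 2, Gfra1 was at 1.27, while its other 2 detected probe sets, at -0.17 and 0.24, did not pass. Kit was at 0.46, and its other probe set passed too, at 0.65. Of 6 endothelial markers 1 was lower, Vwf at -0.37 (adjusted p = 0.0130), with a mean signal of 6.97 to 7.09 in null and 6.87 to 7.05 in WT testes. Of 5 peritubular myoid markers 0 passed (8.79 to 9.07 in null and 8.73 to 9.26 in WT testes), with a median change of -0.19. Among the genes that did not pass were Amh (-0.01) of the Sertoli list and Cd68 (0.05), Cd14 (0.04) and C1qb (-0.17) of the macrophage list, whose mean signals overlapped between the groups. The part of these cells in the results was not tested.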

How the data were processed

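Testis RNA of 5 Tmem203 null and 4 WT samples was hybridised to Affymetrix Mouse Genome arrays. The deposited log2 values, 1 per probe set and array, were made by the authors with Robust Multichip Average (background adjustment, quantile normalization and probe set summary) after a quality check of the scans, with every array kept. The scans were not used here, so these steps were not varied, and scan batches were not tested. Quantile normalization sets all arrays to a shared distribution, so a general shift of RNA content is not visible. Precision is limited by the number of arrays.

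Null minus WT was fitted for 45037 probe sets (64 control probe sets left out) by lmFit and eBayes of limma 3.58.1 (R 4.3.3), with Benjamini-Hochberg adjustment over all of them. The fit was tested on simulated data. Calls used the thresholds of the methods, namely 1.5-fold or more in either direction, an adjusted p below 0.05, 1 or more arrays at a log2 signal of 5 (32 linear) or higher and annotation to 1 gene alone. Symbols came from the platform annotation (34945 probe sets with 1 symbol, 932 with several and 9160 with none) and were updated through Entrez identifiers for 34741. Differences within arrays were tested with exact permutation tests (SciPy 1.17.1). The members and lists were chosen with earlier results of these data known. The text names all member probe sets, the called genes and up to 3 genes with the smallest p of each pathway list among those that passed, the 3 probe sets most like each called member, and Tmem203. The alternatives were array weights, detected probe sets alone, a further quantile normalization, median centring, an intensity trend, robust variance, a replicate block, a 2-fold threshold, another probe set per gene, the omission of probe sets shared between transcripts and of each array in turn.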

Additional observations from a re-analysis of the deposited data

Results flagged for a closer look

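In the Xiap probe set 1426636_a_at, Tmem203 null replicate 2 stood at 6.14, apart from the other null testes, which lay between 6.58 and 6.70, while the WT testes ranged from 5.73 to 6.33. It was the only value so flagged among 38 groups of arrays examined, and chance alone flags about 1 group in 20. Null replicate 2 was also the null array nearest to WT for Casp8, at 7.00.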

How the results depend on the processing

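Mlkl, Gsdmd, Casp8 and Xiap (1437533_at) passed an adjusted p of 0.05 under all 16 alternatives, with the ranges given above for the first 3 and 0.50 to 0.57 for Xiap. Casp1 lost its call in 7 of 16, at an adjusted p of up to 0.111. Member probe sets that passed numbered 5, and 4 to 7 over all alternatives. The 3 called members stayed 3 except at a 2-fold threshold, which left 1. Pathway list genes that passed numbered 22, and 10 to 25 when each array was left out in turn. The lowest count came without null replicate 5. Leaving out arrays gave -1.28 to -1.11 for Mlkl minus Ripk3 and 0.53 to 0.71 for Casp8 minus Fadd, with adjusted p up to 0.107 for both. Fewer arrays raise the smallest p for both differences. For Casp8 minus Fadd, the groups also overlapped with every array kept, and its p was then already above the smallest possible. The replicate numbers did not pair the samples, as same-numbered arrays deviated together at -0.07, 0.10, -0.04 and -0.00. With the replicate number as a block, 7 list genes passed and 4 member probe sets, and the calls of Birc3 (adjusted p = 0.0507), Cflar (adjusted p = 0.0540) and Flot2 (adjusted p = 0.0886) were lost. Calls of 12 further list genes were lost in 2 to 12 alternatives, among them Casp4 in 7, Gsdme in 7, Gsdma in 9 and Bok in 11. No called value reversed.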
